A study of Mus musculus with 27 samples.

Results

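The respiratory chain of mitochondria is built from subunits of 2 genomes. Members were taken by gene symbol: the mitochondrially encoded mt-Nd, mt-Co, mt-Cytb and mt-Atp genes, and the nuclear Nduf, Sdh, Uqcr, Cox4 to Cox8 and Atp5 genes. This gave 107 of 17687 genes, namely 13 mitochondrially encoded genes, 90 nuclear genes and 4 genes set apart by their symbols as pseudogenes of such subunits. Of these 4, Cox5b-ps is annotated as protein coding and the others as processed pseudogenes. Ndufb1-ps, whose symbol also marks a pseudogene, was counted among the 90 nuclear genes, as an accessory subunit of complex I. Of the 107, 105 were in the transgene table, 102 in the knockout table and 100 in both. The nuclear set includes 8 assembly factors of complex I, which are not subunits. Cyc1, the cytochrome subunit of complex III, is not caught by these symbols.

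Complex I oxidises NADH and complex II oxidises succinate, and both pass electrons to ubiquinone. Complex III hands them to cytochrome c and complex IV to oxygen, while the proton gradient built on the way drives ATP synthase, complex V. Complex II is wholly nuclear encoded, and every other complex joins subunits of both genomes. In the intestine, mature enterocytes of the villus are known to be rich in mitochondria.

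RNA was sequenced from mouse intestinal epithelium and intestinal adenomas. In the Braf group (BrafV637E/+;Vil-CreERT2/+), Cre recombinase under the villin promoter, induced with tamoxifen, activates a mutant allele of the kinase gene Braf in the intestinal epithelium. The knockout group (BrafV637E/+;Vil-CreERT2/+;Fosl1lox/lox) is made to lose also Fosl1, the gene of an AP-1 transcription factor. The transgene group (Tet-o-Fosl1;Vil-CreERT2/+) has no Braf mutation, and after tamoxifen its mice were fed doxycycline at 2000 mg/kg of chow. Its labels name no transactivator. Controls were normal tissue of mice given oil in place of tamoxifen, and the protocol names them as of the Braf-mutant genotype. Mice were 6 weeks old, and the protocol gives 5 mg of tamoxifen by oral gavage for 2 days. Every tumour group is adenoma and every control is normal tissue, so genotype, tumour state and tamoxifen cannot be told apart, and doxycycline was given to the transgene group alone. The transgene table (CPM table in the plots) holds 3 control, 3 Braf and 3 transgene libraries. The knockout table holds 6 control, 5 Braf and 6 knockout libraries from other samples. Nothing in the labels says more about how mice map to libraries, so p-values measure the spread between these libraries. Libraries came from a polyA kit or from a stranded, ribosome-depleted kit. The kit of each is not stated, so a difference of kit between groups cannot be told apart from the differences given here.

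The transgene table gives CPM, read counts scaled to the same library total, and its libraries held 12.4 to 15.5 M reads. The knockout table gives normalised counts, brought here to the scale of CPM with a single factor and called nCPM, whose depth is unknown. Fosl1 was at 0 CPM in the 3 control libraries, at 4.15, 4.27 and 5.31 CPM in the Braf libraries and at 3.62, 3.70 and 3.30 CPM in the transgene libraries. It has no row in the knockout table as used here, so its deletion was not checked. All differences are log2 changes on the log2(value + 1) scale with their standard error (SE), from limma fitted to all tested genes of a table, with Benjamini-Hochberg adjustment and a threshold of 0.05. The median gene of the table moved too, by 0.27 in Braf and 0.47 in transgene tumours against controls in the transgene table, and by 0.42 in Braf and 0.27 in knockout tumours against the controls of the other table. A change of a member below these values is a fall relative to the median gene.

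Markers of cell types moved with the tumour groups, and those of epithelium were present in all, with a summed level of 6630 to 7975 CPM in controls, 14809 to 16265 CPM in Braf and 10191 to 11268 CPM in transgene libraries. Of 8 enterocyte markers 7 were lower in each of the 4 comparisons of tumours with controls, and their summed level was 25559 to 39095 CPM in controls, 1261 to 3854 CPM in Braf and 2144 to 4136 CPM in transgene libraries. The sum was 35074 to 47074 nCPM in controls, 1097 to 17661 nCPM in Braf and 2380 to 15498 nCPM in knockout libraries of the knockout table. The summed level of 6 smooth muscle markers was 0.572 to 16.9 CPM in controls, 46.7 to 178 CPM in Braf and 391 to 590 CPM in transgene libraries, and all 5 tested in that table were called higher in both tumour groups. No marker of these 2 lists was at 0 throughout a group. In bulk tissue, fewer cells of a type and less RNA per cell cannot be told apart, and the part of cell composition in the results that follow was not tested.

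The nuclear genome holds copies of mitochondrial DNA, and the mitochondrially encoded members fell into a low and a high set beside them. Of the 13 mitochondrially encoded members, 5 had a copy on chromosome 1 that was at least 99.7% identical over nearly the whole gene (98.99% or more). These were mt-Atp6, mt-Co2, mt-Co3, mt-Nd3 and mt-Nd4l. Together with mt-Atp8 they had mean levels of 0.885 to 17.04 CPM (4 genes) and 0.790 to 48.3 nCPM (6 genes). The 17.04 CPM is the mean of mt-Co3, which was at 83.4 CPM in transgene replicate 1 and at 4.35 to 13.2 CPM in every other library. The other 7 genes had means of 428 to 14671 CPM and 2024 to 44068 nCPM. The first 60 bases of mt-Nd3 and of its copy Gm28438 show how alike a pair of the low set is, and the same number of bases near the start of mt-Cytb and of its more diverged copy Gm11410 show a gene of the high set. Bases that differ within a pair are in capitals (GENCODE transcripts, GRCm38; mt-Nd3 at chrM:9459-9518 and Gm28438 at chr1:24613060-24613119 on the minus strand; mt-Cytb at chrM:14175-14234 and Gm11410 at chr4:80004019-80004078, plus strand).
mt-Nd3: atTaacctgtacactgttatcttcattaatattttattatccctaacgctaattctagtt
Gm28438: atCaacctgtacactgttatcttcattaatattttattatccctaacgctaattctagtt
mt-Cytb: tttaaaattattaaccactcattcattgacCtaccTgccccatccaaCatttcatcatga
Gm11410: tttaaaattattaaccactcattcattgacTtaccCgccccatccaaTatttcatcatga

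Over the whole gene, mt-Nd3 and its copy differed at 1 of 345 aligned bases, and mt-Cytb and its copy at 82 of 1143. The plot of level against copy coverage shows mt-Co1 and mt-Nd4 in between, with 31.3% and 63.6% of the gene in such a copy. How reads that match more than 1 place were counted is not given in the sources used here, so levels of the low set are uncertain, and nuclear members may likewise share reads with their processed pseudogenes. mt-Nd6, the one member encoded on the light strand, runs against the others. Whether the counting used strand, and which kit each library came from, is not stated.

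**Figure D1:**
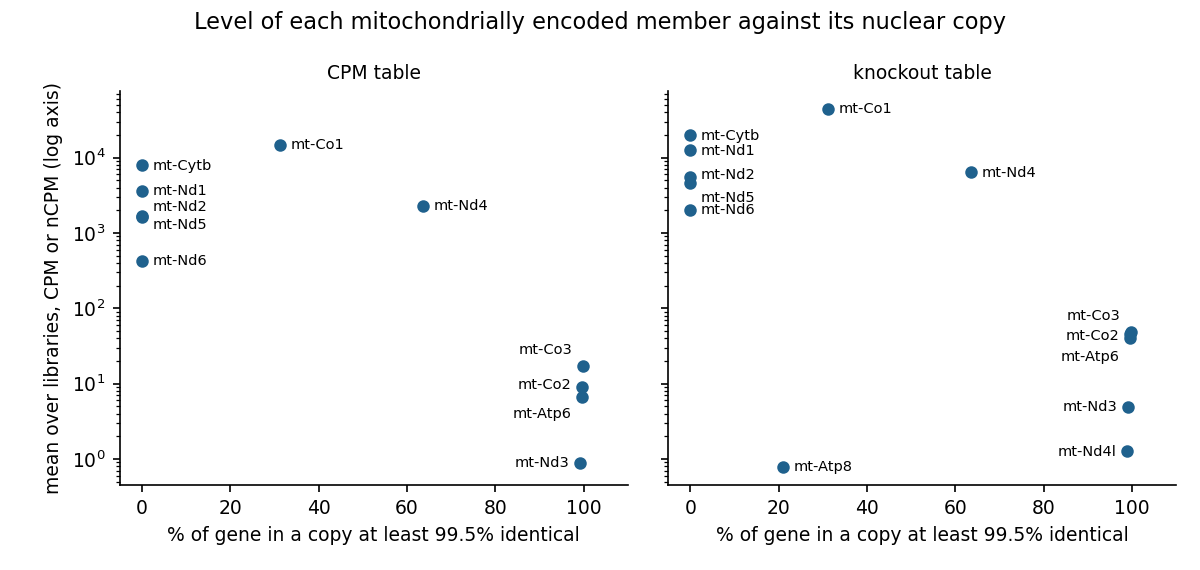
Mean level of each mitochondrially encoded member over the libraries of a table (log axis, CPM on the left, nCPM on the right) against the percentage of the gene that lies in a near-identical nuclear copy, with 1 point per gene. The 5 genes with such a copy over nearly their whole length, and mt-Atp8, sit at least an order of magnitude below the other 7.

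Per kilobase of annotated exon, 6 of the 11 mitochondrially encoded genes of the transgene table were its most abundant members in controls. mt-Co1, the catalytic core of complex IV, came first at 12801 ± 1282 CPM per kb (SD, n = 3), followed by mt-Cytb at 9010 ± 346 CPM per kb and mt-Nd1 at 4036 ± 390 CPM per kb. mt-Nd4 and mt-Nd2 came next, and their control ranges overlapped. The highest nuclear member was Cox6a1, a structural subunit of complex IV, at 996 ± 94.5 CPM per kb. mt-Nd6 came 11th at 575 ± 160 CPM per kb, after 4 nuclear members, and mt-Co2, mt-Co3, mt-Atp6 and mt-Nd3 of the low set had ranks 83, 84, 87 and 98. All exons annotated for a gene were merged for its length, which lowers nuclear genes with many transcripts.

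In Braf adenomas most mitochondrially encoded members fell. Of the 11 tested in the transgene table, 8 were lower and none was higher than in controls, where 51.1% of all 15173 tested genes were called, 33.1% as higher and 18% as lower. The median log2 change of the 11 was -0.83, against 0.27 for all genes tested. Without control replicate 1 the count was 4, and without another single library 6 or 7. All 8 kept their call when the table was rescaled by TMM or by median ratios, scalings that bring the median gene close to 0.

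mt-Cytb, the mitochondrially encoded subunit of complex III, was at 10162, 10004 and 10756 CPM in the control libraries and at 5011, 4408 and 4977 CPM in the Braf libraries. The groups did not overlap, and the log2 change was -1.10 ± 0.18 (SE, adjusted p = 0.00058, limma). mt-Co1 (chrM:5328-6872) was at 21574, 20106 and 17654 CPM in controls and at 10491, 10084 and 10331 CPM in Braf libraries. Each Braf library lay under the lowest control, with a log2 change of -0.94 ± 0.19 (adjusted p = 0.0019, limma). The complex I genes mt-Nd4, mt-Nd2, mt-Nd5 and mt-Nd1 changed by -0.99, -0.91, -0.83 and -0.50 on the log2 scale, and all 4 passed. mt-Nd6 did not pass, at 0.05 ± 0.32, with 392, 235 and 268 CPM in controls and 355, 177 and 437 CPM in Braf libraries. Of the low set, mt-Co2 and mt-Atp6 passed at -0.81 and -0.72, mt-Co3 was at -0.95 with an adjusted p of 0.30 (limma), and mt-Nd3 was at 0.14. mt-Co3 was at 13.2, 11.2 and 10.5 CPM in controls and at 5.90, 4.35 and 6.41 CPM in Braf libraries, without overlap. The fit takes its spread from all 3 groups, and mt-Co3 was at 83.4, 9.32 and 9.15 CPM in the transgene libraries. Its lack of a call thus does not show that it was unchanged.

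The same comparison in the other table, made on other samples, also had mitochondrially encoded members falling, with a wider spread. There 10 of 13 were lower and none higher, with 61.6% of 14806 tested genes called, 45.3% as higher and 16.2% as lower. mt-Nd4l and mt-Atp8, 2 of the 10, reached the level needed for a test only with the control libraries, in which they are higher, so their calls add nothing. Among the 11 members tested in both tables, which leave out these 2, 8 were lower here. The median log2 change of the 13 was -1.04 against 0.42 for all genes. This median and the counts without 1 library include mt-Nd4l and mt-Atp8. mt-Co1 ranged from 33371 nCPM over a median of 58704 to 103770 nCPM in the 6 controls. It was at 36003, 30448, 13549, 18674 and 19144 nCPM in the 5 Braf libraries. One Braf library therefore lay within the control range, and the log2 change was -1.39 ± 0.43 (adjusted p = 0.0081, limma). mt-Nd5 changed most, by -1.64 ± 0.42 (adjusted p = 0.0023, limma), and mt-Cytb by -1.17 ± 0.42 (adjusted p = 0.022, limma). Leaving out 1 library brought the count of 10 to between 4, without Braf replicate 6, and 11. It was 5 without control replicate 4, and 6 without control replicate 5, Braf replicate 7 or Braf replicate 8. Of the 8 mitochondrially encoded members lower in the transgene table, and of the 8 among those tested in both tables that were lower in the knockout table, 7 were shared, which is 87.5% of each list.

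Summed over members, mitochondrially encoded transcripts made up 4.33%, 3.99% and 4.02% of control libraries and 2.24%, 2.05% and 2.26% of Braf libraries in the transgene table. Transgene libraries were at 4.37%, 2.69% and 3.07%, so that 1 of the 3 was above every control and the other 2 lay between the groups. The share in the knockout table was 6.70% to 21.4% in controls (median 11.6%), 3.10% to 7.75% in Braf libraries (median 4.11%) and 4.60% to 26.1% in knockout libraries (median 6.54%). Knockout replicate 2 held the 26.1%, and the next knockout library was at 10.6%. Nuclear-encoded subunits, without the assembly factors, summed to 2.13 ± 0.15% of control, 1.77 ± 0.12% of Braf and 1.61 ± 0.09% of transgene libraries (SD, n = 3 each). The log2 ratio of the mitochondrially encoded to the nuclear sum was 1.06, 0.99 and 0.81 in control libraries and 0.39, 0.29 and 0.25 in Braf libraries, where the groups did not overlap. It was 1.40, 0.69 and 1.03 in transgene libraries, which surround the controls. The knockout table had ratios of 1.80 to 3.98 in controls, 0.81 to 2.27 in Braf libraries and 1.35 to 4.72 in knockout libraries, and all 3 groups overlapped. The 2 mitochondrial ribosomal RNAs, which are no members, summed to 3416, 2067 and 3208 CPM in control libraries and 1010, 1566 and 1195 CPM in Braf libraries. The part of the library kit in these shares, ratios and sums was not tested.

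**Figure D2:**
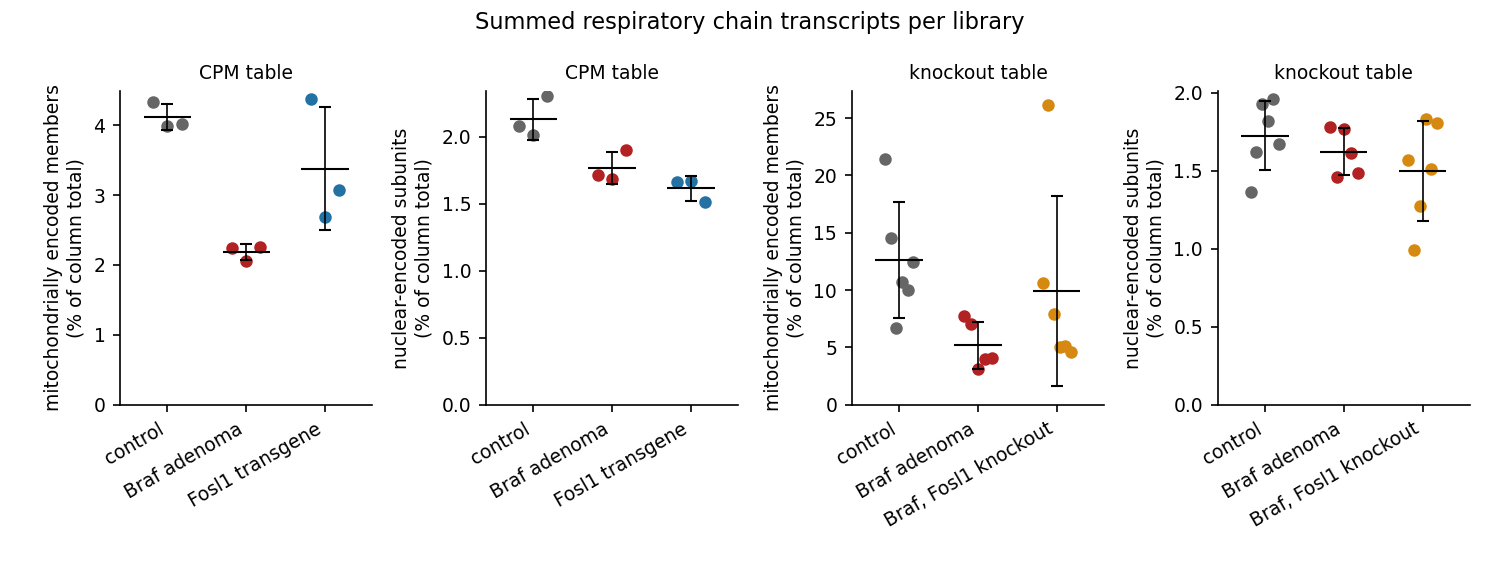
Summed level of mitochondrially encoded members and of nuclear-encoded subunits as a percentage of the column total, per library (points), with the group mean (line) and SD (bars), by table. In the transgene table the 3 Braf libraries lie at 2.05% to 2.26% mitochondrially encoded transcripts, under the 3 controls, and in the knockout table a single knockout library lies at 26.1%.

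Nuclear-encoded members did not move as 1 block in Braf adenomas. Of 89 tested in the transgene table, 21 fell and 10 rose. Their median log2 change was -0.08 against 0.27 for all genes. Of 88 tested in the knockout table, 8 fell and 11 rose, with a median of 0.04 against 0.42. The 10 rises numbered 6 without control replicate 1 or 2 or Braf replicate 3, and the 11 rises numbered 7 without control replicate 4. The 8 falls numbered 4 without control replicate 7, 8 or 9 or Braf replicate 5, and 5 without control replicate 5 or 6 or Braf replicate 8. As a share of all genes, 18% were lower and 33.1% higher in the transgene table, and 16.2% and 45.3% in the knockout table. The counts by complex in Braf adenomas given below stand beside these same shares. The balance depended on the scaling. All 21 and all 8 falls kept their call under TMM and median-ratio rescaling. Of the 10 rises 6 kept theirs under both, and of the 11 rises 2 did under TMM and 1 under median ratios. Under TMM the split was 36 lower to 6 higher in the transgene table and 49 lower to 2 higher in the knockout table, where 25.3% and 29.5% of all genes were lower and 25.0% and 28.8% higher. With the knockout table rescaled to its sum without mitochondrially encoded genes, it was 19 lower to 8 higher. The plot of nuclear calls by scaling shows all 4 comparisons with controls.

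**Figure D3:**
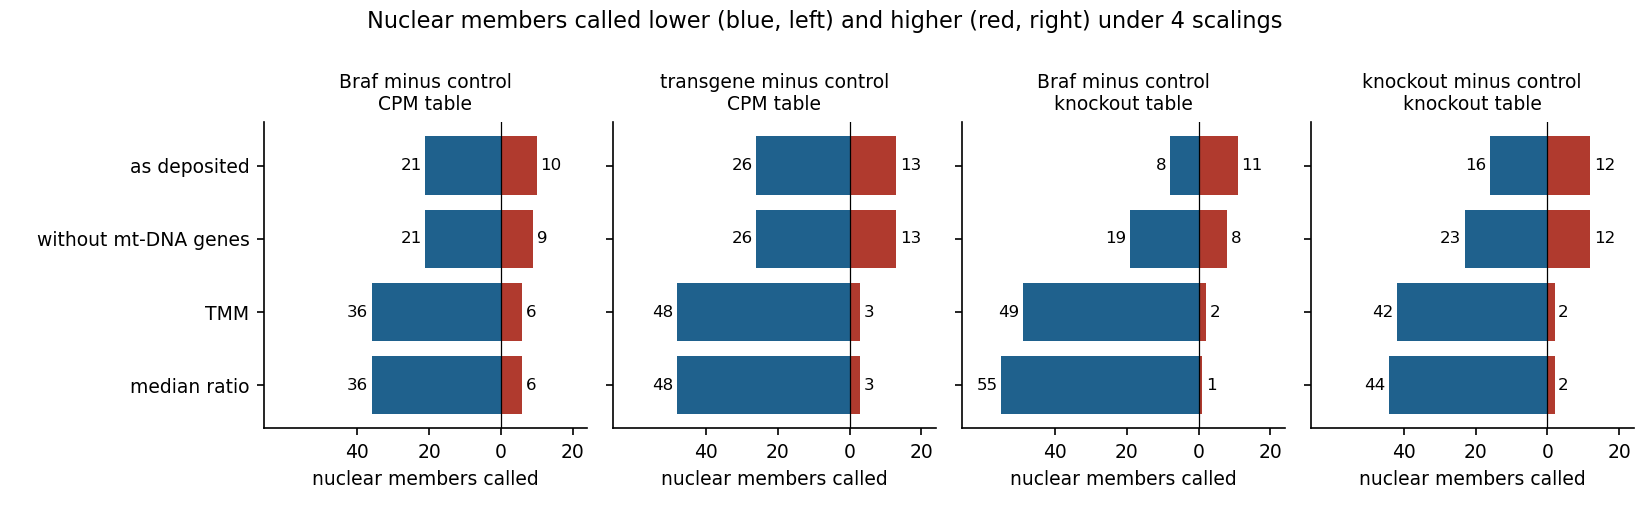
Number of nuclear members called lower (left, blue) and higher (right, red) in each comparison of tumours with controls, with the values as deposited, rescaled to the sum without mitochondrially encoded genes, by TMM or by median ratios. The Braf comparison of the knockout table goes from 8 lower and 11 higher as deposited to 49 lower and 2 higher under TMM.

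Complex II, succinate dehydrogenase, which also works in the tricarboxylic acid cycle, had 3 of 4 subunits lower in Braf adenomas of the transgene table and 2 of 4 in the knockout table, with none higher as deposited or under any of the 3 rescalings. Sdha, its flavoprotein (chr13:74322254-74350280, minus strand, GRCm38), was at 703, 629 and 739 CPM in control libraries, 357, 489 and 312 CPM in Braf libraries and 322, 255 and 258 CPM in transgene libraries. No tumour library reached the lowest control. The log2 change was -0.86 ± 0.18 in Braf (adjusted p = 0.0026, limma) and -1.31 ± 0.18 in transgene adenomas (adjusted p = 0.00014, limma). Sdhb, the iron-sulfur subunit, was at 426, 384 and 474 CPM in controls and at 184, 186 and 191 CPM in Braf libraries, a change of -1.18 ± 0.13 (adjusted p = 4e-05, limma). Sdhb was, in the knockout table, at 236 to 345 nCPM in controls and at 185, 92.8, 210, 187 and 143 nCPM in Braf libraries, again without overlap. Sdhd, a membrane anchor, changed by -0.50 in the transgene table, and by -0.26, which did not pass, in the knockout table. Sdhc, the other anchor, was at -0.07 and -0.04 and passed in neither.

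Complex I had falls among its core subunits and calls in both directions among its accessory subunits. Of the 7 nuclear subunits of the catalytic core, 3 fell and none rose in Braf adenomas of the transgene table, and 2 fell and none rose in the knockout table. Of the 30 accessory subunits 5 fell and 5 rose in the transgene table, and none fell and 5 rose in the knockout table. The difference between the 2 classes was not tested. Ndufv1, which binds NADH and the flavin, was at 319, 305 and 336 CPM in control libraries and at 203, 202 and 208 CPM in Braf libraries, a change of -0.64 ± 0.11 (adjusted p = 0.00093, limma). Ndufs1, the largest iron-sulfur subunit, changed by -0.64 ± 0.15 in the transgene table and by -0.40 ± 0.16 in the knockout table (adjusted p = 0.0050 and 0.036, limma).

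Ndufb2, an accessory subunit of the membrane arm, changed by -1.01 ± 0.28 in the transgene table (adjusted p = 0.013, limma). Its level was low, at 6.01, 4.59 and 9.92 CPM in controls and 3.02, 2.50 and 2.73 CPM in Braf libraries. The Braf values rest on 43, 31 and 37 reads. Ndufs4, an accessory subunit needed in mice and humans for a stable complex I (chr13:114287795-114388258), was at 72.9, 67.4 and 95.3 CPM in controls and at 109, 101 and 149 CPM in Braf libraries. The groups did not overlap, and the change was 0.59 ± 0.18 (adjusted p = 0.020, limma). Ndufa7 rose from 85.4 ± 18.8 to 140 ± 14.2 CPM (SD, n = 3), by 0.73 ± 0.17, and Ndufc2, a membrane-arm subunit, from 67.8 ± 13.7 to 106 ± 24.6 CPM, by 0.63 ± 0.19. Under TMM only Ndufa7 of these 3 kept its call, with 0.46, while Ndufs4 stood at 0.33 and Ndufc2 at 0.36. Ndufb1-ps had the largest rise, from 19.1 ± 1.52 to 44.8 ± 14.2 CPM, by 1.15 ± 0.21 (adjusted p = 0.0010, limma). Its symbol marks a pseudogene, while the annotation calls it a noncoding transcript from a bidirectional promoter. It was counted here among the accessory subunits, unlike the 4 genes set apart as pseudogenes. The assembly factor Ndufaf2 rose from 6.92 ± 0.86 to 14.5 ± 3.76 CPM, by 0.94 ± 0.20, and in the knockout table Ndufaf5 and Ndufaf7 rose by 0.72 and 0.78. Ndufaf8 and Ndufaf4, the assembly factors of highest mean level in the transgene and the knockout table, stood at -0.16 and 0.31 in Braf adenomas, Ndufaf8 at -0.33 in transgene and Ndufaf4 at 0.23 in knockout adenomas, and none of these passed. Ndufaf8 was at -0.17 between transgene and Braf adenomas and Ndufaf4 at -0.08 between knockout and Braf adenomas, and neither passed. None of the 8 assembly factors fell in either table as deposited, while under TMM 1 of 8 was called lower in the knockout table.

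Complex III had 3 of 8 nuclear subunits lower and none higher in Braf adenomas of the transgene table, and none called in the knockout table as deposited. Under TMM 4 were lower there. Uqcrc1, a core protein of the complex (chr9:108936633-108949623), was at 1079, 1007 and 1116 CPM in controls and at 538, 590 and 445 CPM in Braf libraries, a change of -1.03 ± 0.14 (adjusted p = 0.00018, limma). Uqcrc1 was, in the knockout table, at 430 to 625 nCPM in controls and at 431, 268, 438, 610 and 302 nCPM in Braf libraries, where 3 of the 5 lay inside the control range, and the change of -0.43 ± 0.23 did not pass. Uqcrc2, the other core protein, and Uqcrfs1, the Rieske iron-sulfur protein, changed by -0.67 and -0.75 in the transgene table.

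Complex IV held the largest change of any member. Cox7a1 (chr7:30184144-30186078) encodes the isoform of subunit 7A found chiefly in heart and skeletal muscle, and Cox7a2 the isoform found elsewhere. Cox7a1 was at 53.6, 71.4 and 45.2 CPM in control libraries, at 4.29, 3.95 and 4.42 CPM in Braf libraries and at 10.3, 15.7 and 7.54 CPM in transgene libraries. Control and tumour libraries were far apart, and the log2 change was -3.44 ± 0.26 in Braf (adjusted p = 2.8e-06, limma) and -2.27 ± 0.26 in transgene adenomas (adjusted p = 4.4e-05, limma). Cox7a1 was, in the knockout table, at 48.5 to 93.3 nCPM (median 78.3) in controls, at 9.36, 3.73, 5.72, 10.01 and 3.72 nCPM in Braf libraries and at 3.83 to 18.3 nCPM (median 7.86) in knockout libraries, again with no overlap of tumours and controls. Cox7a2 passed in none of these comparisons as deposited. Cox7a1 made up 22.6%, 28.1% and 16.1% of the sum of both isoforms in control libraries and 2.41%, 2.44% and 1.97% in Braf libraries, and in the other table it made up 28.2 ± 2.17% (SD, n = 6) in controls, 3.21 ± 1.07% (n = 5) in Braf and 6.16 ± 2.64% (n = 6) in knockout libraries. Of the 6 smooth muscle markers, 5 and 6 were called higher in Braf and knockout tumours of the knockout table. Of 5 striated muscle markers, 2 were in the transgene table and 1 in the knockout table. The 2 summed to 3.41 to 15.02 CPM in controls, 8.55 to 30.2 CPM in Braf and 2.26 to 2.83 CPM in transgene libraries. The 1 was at 1.52 to 4.47 nCPM in controls, 4.81 to 13.8 nCPM in Braf and 3.32 to 14.1 nCPM in knockout libraries. Against controls it was called higher in both, and the 1 tested in the transgene table was not called. The part of muscle in the fall of Cox7a1 was not tested.

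Cox7a2l, which in mice helps to join complexes III and IV into supercomplexes, went the other way. It was at 122, 112 and 144 CPM in controls and at 225, 174 and 272 CPM in Braf libraries, a change of 0.81 ± 0.20 (adjusted p = 0.0064, limma). Cox7a2l was, in the knockout table, at 81.6 to 121 nCPM in controls and at 162, 152, 202, 174 and 192 nCPM in Braf libraries, a change of 0.80 ± 0.17 (adjusted p = 0.00042, limma). It kept its call under TMM in both, and under median ratios in the transgene table alone. Of the other isoforms, Cox6b2 was lower in the knockout table (log2 change -1.04 ± 0.27) at means of 1.29 against 3.82 nCPM, and did not pass in the transgene table. Cox4i1, Cox6a1, Cox6b1, Cox8a and Ndufa4, the widely expressed partners, did not pass in Braf adenomas in either table. Cox6a2 and Cox8b have no row in either table, and Cox4i2, at 0, 2 and 1 reads in controls, was not tested.

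Of the 17 nuclear subunits of complex V, 4 fell and 2 rose in Braf adenomas of the transgene table, and 2 fell and 2 rose in the knockout table. Atp5b, the catalytic beta subunit and the nuclear member of highest mean level, was at 2573, 2278 and 2815 CPM in controls and at 1693, 1868 and 1653 CPM in Braf libraries, a change of -0.55 ± 0.14 (adjusted p = 0.0066, limma). Atp5a1, the alpha subunit, changed by -0.64 ± 0.15 (adjusted p = 0.0050, limma), and by -0.38, which did not pass, in the knockout table. Atp5c1, Atp5d and Atp5e, of the stalk that turns inside the head, passed in Braf adenomas of neither table. Atp5g1, Atp5g2 and Atp5g3 encode the same mature subunit c with different import signals. Atp5g1 and Atp5g3 changed by -0.58 and -0.55 in Braf adenomas of the transgene table, and Atp5g2 (chr15:102662864-102672352, minus strand) by 0.77 ± 0.13 (adjusted p = 0.00058, limma), from 109, 113 and 119 CPM in controls to 209, 174 and 201 CPM. Atp5g2 thus supplied 11.1%, 11.2% and 10.6% of the subunit c transcripts in control libraries, 27.1%, 22.0% and 22.0% in Braf libraries and 16.9%, 20.03% and 19.7% in transgene libraries. Its share in the knockout table was 8.62 ± 1.24% (SD, n = 6) in controls, 16.1 ± 3.29% (n = 5) in Braf and 13.5 ± 1.29% (n = 6) in knockout libraries. A share does not depend on the scaling of a library. The change of Atp5g2 in the knockout table, 0.60 ± 0.22 (adjusted p = 0.021, limma), lost its call under TMM, at 0.13. Atp5mpl, a small subunit, rose by 0.55 and 0.61 in the 2 tables, and under TMM was not called in either.

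Both tables compared Braf adenomas with controls in different samples, and over the 88 nuclear members tested in both, the log2 changes had a Pearson correlation of 0.92. It is a description, across genes that are not independent. No member was called in opposite directions. Of nuclear rises, 8 were shared, which is 80.0% of the 10 in the transgene table and 72.7% of the 11 in the knockout table. Of nuclear falls, 7 were shared, which is 33.3% of the 21 and 87.5% of the 8.

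**Figure D4:**
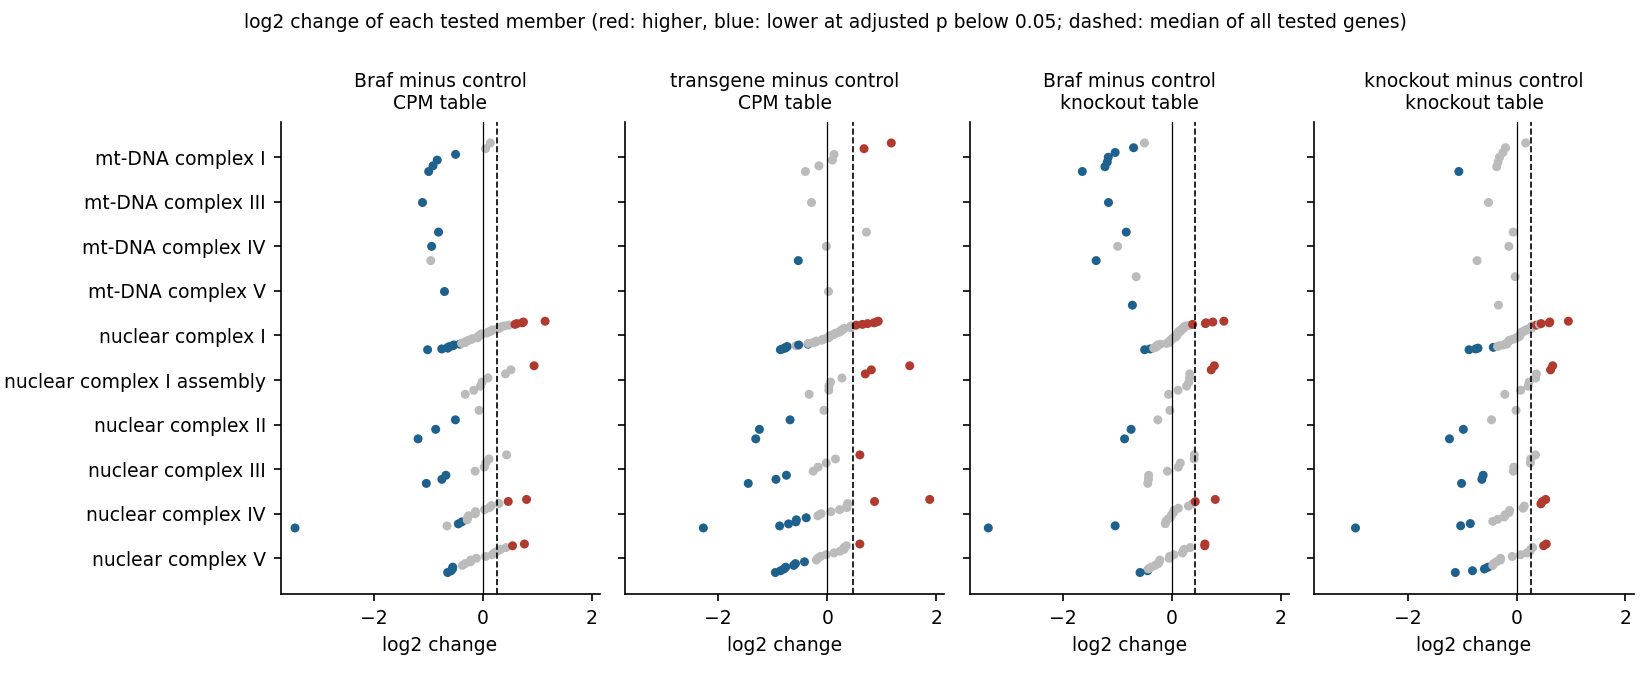
log2 change of every tested member (1 point each), by genome and complex, in the 4 comparisons of tumours with controls. Red points were called higher and blue points lower, grey points did not pass, and the dashed line is the median of all tested genes. Mitochondrially encoded members lie left of 0 in both Braf comparisons, apart from mt-Nd6 and mt-Nd3 in the transgene table, and Cox7a1 is the far left point of nuclear complex IV.

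Fosl1 transgene adenomas, which carry no Braf mutation, had 26 of 89 nuclear members and 1 of 11 mitochondrially encoded members lower than controls. The median log2 change was -0.02 over the nuclear and 0.011 over the mitochondrially encoded members, against 0.47 for all genes, and the difference between both genomes was not tested. In that comparison 64.2% of all genes were called, 46.7% as higher and 17.5% as lower. Of 11 mitochondrially encoded members, mt-Co1 was lower at -0.53 ± 0.19 (adjusted p = 0.028, limma), a call lost without control replicate 1 or 2 or transgene replicate 2 or 3, and mt-Nd6 and mt-Nd3 were higher, by 1.18 and 0.68. Under TMM these 2 were not called and 4 of the 11 were lower. mt-Nd6 was at 757, 585 and 646 CPM in transgene libraries, above every control and every Braf library. mt-Nd3, of the low set, rested on 24, 23 and 15 reads against 5, 4 and 12 in controls. It reached the level needed for a test only with the transgene libraries, so its call adds nothing. Of the 89 nuclear members 13 rose, Ndufa4l2 among them, which was likewise tested only through the transgene libraries. All 26 falls kept their call under TMM and under median ratios, and of the 13 rises Ndufaf2 and Ndufc2 did. Ndufa4l2 was also called under both, which adds nothing, as it was tested only through the group in which it is high. The split under TMM was 48 lower to 3 higher, with Ndufa4l2 among the 3, where 28.8% of all genes were lower and 31.4% higher. Uqcrc1 was at 420, 393 and 358 CPM in transgene libraries, a change of -1.45 ± 0.14 (adjusted p = 1.8e-05, limma), the largest fall after Cox7a1. Complex V had 7 of 17 nuclear subunits lower, with Atp5b at -0.95 ± 0.14. Cox4i1 and Cox6a1, the abundant complex IV subunits that did not pass in Braf adenomas, changed here by -0.39 and -0.58, and Cox5a by -0.87. Of complex III, Uqcrh, a hinge-like acidic subunit, rose by 0.60, and of complex I Ndufb4 rose by 0.74, both without a call under TMM.

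Ndufa4l2, known as a hypoxia-inducible relative of the complex IV subunit Ndufa4, had few reads outside the transgene group. It was at 0.0715, 0.389 and 0.0758 CPM in controls (1, 5 and 1 reads), at 0.211, 0.322 and 0.295 CPM in Braf libraries (3, 4 and 4 reads) and at 3.49, 4.66 and 2.15 CPM in transgene libraries (54, 63 and 32 reads). The transgene libraries lay apart from both other groups. No control or Braf library reached 1 CPM, so the gene was tested only through the group in which it is high, and these values are a description with no test. Cox4i2, another isoform with few reads, was at 15, 53 and 26 reads in transgene libraries and 9, 4 and 3 reads in Braf libraries. In the same libraries the summed fibroblast markers were at 615 to 1204 CPM, against 18.5 to 170 CPM in Braf and 6.59 to 18.3 CPM in control libraries, and their part in these differences was not tested.

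Set directly against Braf adenomas, transgene adenomas had 7 of 11 mitochondrially encoded members higher and none lower, where 19.2% of all genes were called, 14.5% as higher and 4.72% as lower. mt-Cytb differed by 0.81 ± 0.18 (adjusted p = 0.013, limma) and mt-Nd2 by 1.04 ± 0.25 (adjusted p = 0.018, limma). This count rests on the scaling and on single libraries. It was 1 under TMM and median-ratio rescaling, 0 with edgeR and 4 with DESeq2 on the recovered reads, and 2 without Braf replicate 2, transgene replicate 1 or transgene replicate 3. It was 4 without Braf replicate 1 or transgene replicate 2. Of 89 nuclear members, Cox7a1 was higher, by 1.17, beside Ndufa4l2, which was tested only through the transgene libraries, and Cox5a, Atp5d, Atp5g2 and Cox8a were lower, by changes of -0.62, -0.54, -0.46 and -0.41. Cox7a1 and these 4 kept their calls under TMM and median ratios, and Cox8a lost its call when totals were taken without mitochondrially encoded genes, with the 2 groups alone and without any one of the 6 libraries. Cox5a was at 82.1, 65.0 and 77.1 CPM in transgene libraries and at 124, 125 and 97.3 CPM in Braf libraries. Of nuclear members, none was called lower without transgene replicate 3, 1 without Braf replicate 1 and 2 without Braf replicate 2 or transgene replicate 1 or 2. Without Braf replicate 3, 7 nuclear members were higher.

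In knockout adenomas against controls, 56.8% of all genes were called, 37.4% as higher and 19.4% as lower. Of 13 mitochondrially encoded members, mt-Nd5 alone was lower, at -1.06 ± 0.40 (adjusted p = 0.030, limma). mt-Co1 was at 44940, 115260, 36723, 20894, 23186 and 20407 nCPM in the 6 knockout libraries. Replicate 2 was above every control and 3 of the other 5 were below every control, and the change of -0.72 ± 0.41 did not pass. Without replicate 2, 4 members were lower, and without control replicate 4 or 5, or knockout replicate 5, 6 or 7, none was. Replicate 2 also had the lowest sum of nuclear-encoded subunits in its table, at 9888 nCPM against 12751 to 18314 nCPM in the other knockout libraries.

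Of 88 nuclear members in knockout adenomas, 16 fell and 12 rose, with a median log2 change of -0.01 against 0.27. All 16 falls and 2 of the 12 rises, Ndufb1-ps and Ndufs4, kept their call under TMM and median ratios. The split was 42 lower to 2 higher under TMM, with 29.9% of all genes lower and 28.1% higher. The 12 rises numbered 7 without control replicate 4 or knockout replicate 1. Sdha was at 145, 98.9, 191, 303, 194 and 300 nCPM, below the control range of 393 to 537 nCPM in every library, a change of -1.23 ± 0.23 (adjusted p = 0.00014, limma). Atp5b changed by -1.12 ± 0.24 (adjusted p = 0.00049, limma) and Uqcrc2 by -1.01 ± 0.23 (adjusted p = 0.0011, limma). Ndufs4 was at 138, 91.1, 132, 164, 171 and 158 nCPM against 78.5 to 115 nCPM in controls, where replicate 2 alone lay inside the control range, and the change was 0.61 ± 0.15 (adjusted p = 0.0020, limma). The complex I subunits Ndufa9 and Ndufv3 changed by -0.71 and -0.43. Cox7c of complex IV and Atp5e, the epsilon subunit of complex V, rose by 0.54 and 0.50, both without a call under TMM.

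Between knockout and Braf adenomas no member passed in limma, where 0.419% of all genes were called, 0.0473% as higher and 0.371% as lower. At an unadjusted p under 0.05, 3 of 102 members were higher and 4 were lower, which is 6.86% of members against 14.5% of all genes, and the smallest adjusted p of a member was 0.29. No member passed in limma under either rescaling or without any one library. This does not show that the members were alike. The 13 mitochondrially encoded members had log2 differences of 0.36 to 0.98, and mt-Nd6, at 0.98 ± 0.45, had the largest. Sdha was at -0.48 ± 0.24 and Cox7a1 at 0.41 ± 0.32.

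Over the 4 comparisons of tumours with controls, which share controls within a table, 7 of 88 nuclear members tested in both tables were lower in all 4, which is 7.95% against 11.3% of all 14187 genes tested in both. The share of members thus lay below that of all genes. Atp5b and Atp5g3 of complex V, Ndufs1 and Ndufv1 of complex I, Sdha and Sdhb of complex II and Cox7a1 of complex IV make up this set. All 7 were also lower in all 4 under TMM, where 28 of 88 members (31.8%) and 18.6% of all genes were. Another 6 (6.82%, against 25.2% of all genes) were higher in all 4 as deposited, namely Atp5mpl, Cox7a2l, Ndufa7, Ndufb1-ps, Ndufc2 and Ndufs4. Under TMM none of the 6 was called higher in all 4, and each still had a log2 change above 0 there.

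**Figure D5:**
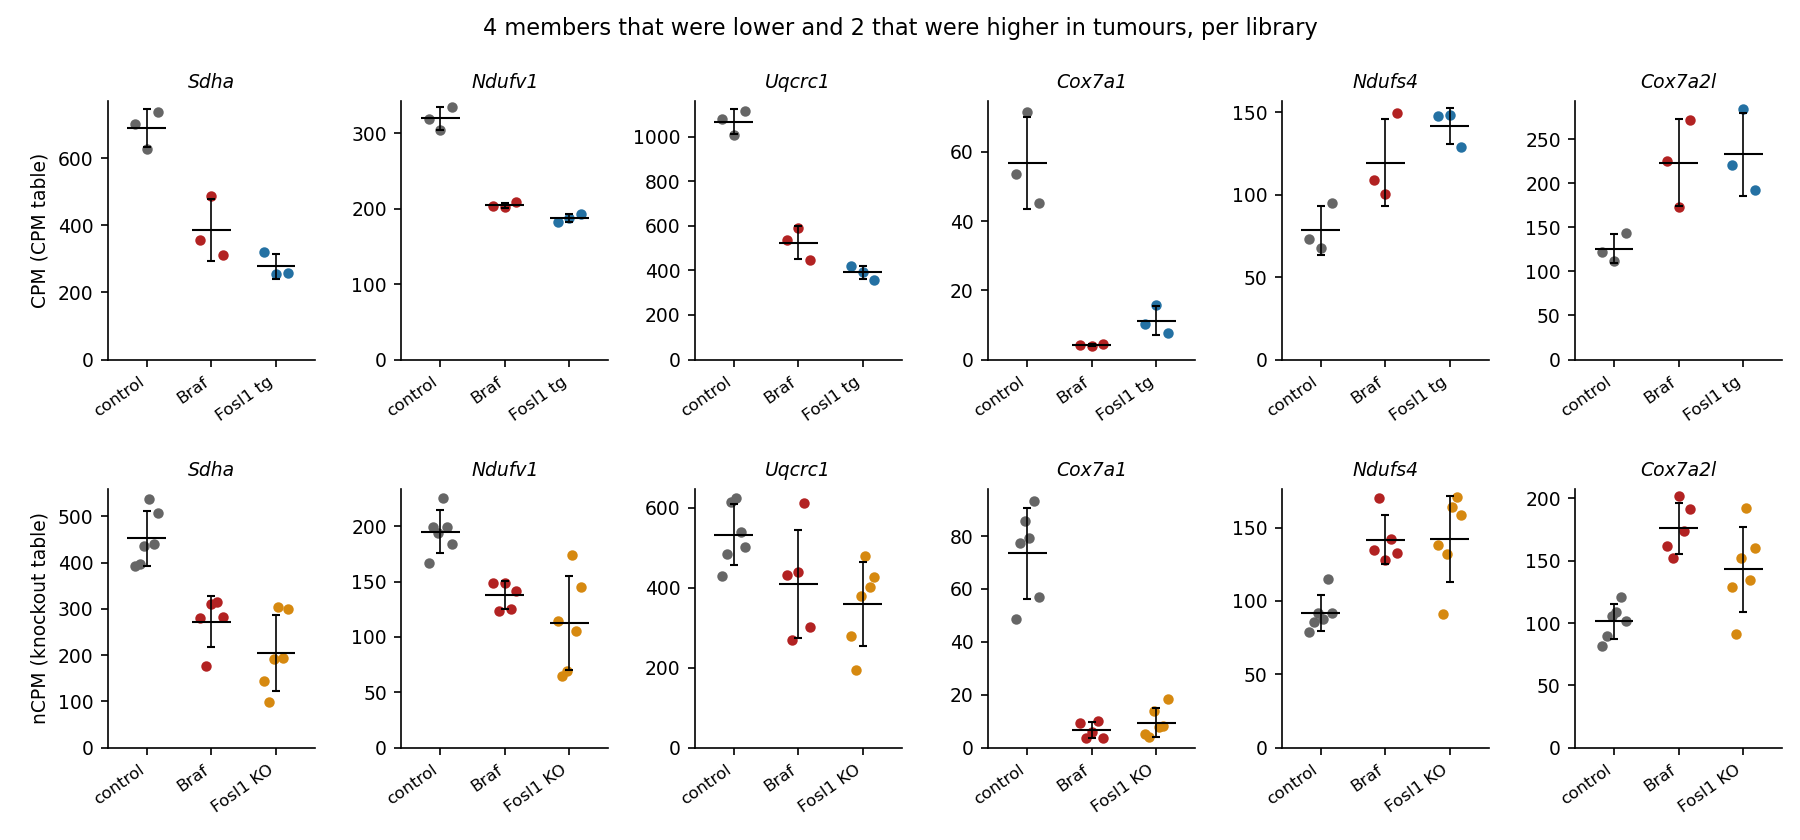
Level of Sdha, Ndufv1, Uqcrc1, Cox7a1, Ndufs4 and Cox7a2l per library (points) with group mean (line) and SD (bars), in CPM (top) and nCPM (bottom). Each axis starts at 0. Every tumour library lies under every control for Sdha and Cox7a1 in both tables, and the Braf libraries lie above every control for Ndufs4 and Cox7a2l in both.

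Changes of the subunits leaned with gene length. Across 81 tested nuclear subunits of the transgene table, the Spearman correlation of merged exon length with the log2 change in Braf adenomas was -0.38, against -0.07 over all 15168 genes with a length. The knockout table gave -0.33 over 80 subunits against a value near 0 over all genes (-0.0028). For knockout against Braf it was -0.11 over both. Of the 41 shorter subunits in the transgene table, 6 rose and 6 fell in Braf adenomas, and of the 40 longer ones 3 rose and 15 fell. These are descriptions across genes, which are not independent, and the part of fragment length or RNA quality was not tested.

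Promoters of the nuclear members were searched on both strands from 250 bases before to 50 bases after the start (RefSeq, GRCm38.p6), and 74 of 90 had an entry. NRF1 (nuclear respiratory factor 1), the ETS family with GABP, YY1 and ERR are transcription factors known to bind promoters of respiratory genes. The NRF1 consensus was found in 25.7% of members and 10.5% of 11266 tested genes with an entry, the YY1 letters AAGATGGC in 14.9% and 4.91%, and the ERR letters AAGGTCA in 10.8% and 4.24%. The ETS letters CCGGAAG were found in 25.7% and 18.5%, and those of AP-1, the family of Fosl1, TGANTCA, in 9.46% and 6.92%. Motifs could overlap. Stretches of 30 bases are shown for 2 members that fell and 2 that rose in Braf adenomas of the transgene table, with the NRF1 consensus or its reverse complement in capitals, 5′ to 3′ on the gene's strand, which is minus for all 4. They lie at chr13:74350319-74350348 (Sdha), chr9:50603909-50603938 (Sdhd), chr15:102671070-102671099 (Atp5g2) and chr13:73328483-73328512 (Ndufs6).
Sdha: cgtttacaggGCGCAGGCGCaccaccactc
Sdhd: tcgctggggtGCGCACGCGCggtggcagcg
Atp5g2: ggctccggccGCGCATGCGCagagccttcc
Ndufs6: ccgccgactgctgtGCGCCTGCGCcggcac

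The letters thus stood before the RefSeq starts of genes of both directions. For Atp5g2 that start lies inside the span given for the gene above, so its stretch does too. Of the 6 promoters of members lower in all 4 comparisons 2 held the NRF1 letters, and of the 4 promoters of members higher in all 4 none did. Of all members with an entry 25.7% held them, so counts this small show no difference between directions. ETS and ERR letters each stood in 1 of the 6 and none of the 4. YY1 letters stood in none of the 6 and 1 of the 4, and AP-1 letters in none of either.

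Genes around the chain were followed in lists chosen with earlier results of these data known, and their counts stand beside the shares of all genes called. In Braf adenomas these were 33.1% higher and 18% lower in the transgene table and 45.3% and 16.2% in the knockout table. Under TMM they were 25.0% and 25.3%, and 28.8% and 29.5%. Of 16 tricarboxylic acid cycle genes tested in Braf adenomas, 10 were lower and none higher in the transgene table, and 7 were lower and 1 higher in the knockout table. In transgene and knockout adenomas 11 and 10 were lower, with 0 and 1 higher, where 17.5% and 19.4% of all genes were lower and 46.7% and 37.4% higher. Ogdh, a subunit of 2-oxoglutarate dehydrogenase, changed by -2.24 ± 0.17 in Braf adenomas of the transgene table (adjusted p = 3.0e-06, limma), and Cs, citrate synthase, by -1.44 ± 0.16. Of 18 genes of electron carriers and other entry points to the chain, 10 were lower and 3 higher there. Coq8a, needed to make ubiquinone, changed by -1.95 ± 0.18, and Sqor, which oxidises sulfide, by 1.40 ± 0.15.

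Of 10 regulators of mitochondrial biogenesis, 3 were lower and 2 higher in Braf adenomas of the transgene table. Ppargc1a, the coactivator PGC-1alpha, was at 55.3 ± 13.2 CPM in controls and 3.98 ± 2.16 CPM in Braf libraries (SD, n = 3), a change of -3.58 ± 0.33 (adjusted p = 1.2e-05, limma). Esrra, its partner ERR-alpha, changed by -1.09 ± 0.15, and Myc rose by 2.28 ± 0.29. Ppargc1a in the knockout table changed by -2.84 ± 0.31 in Braf and -3.12 ± 0.30 in knockout adenomas.

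Of 20 genes that copy and transcribe mitochondrial DNA, 6 were higher and 3 lower in Braf adenomas of the transgene table, and 9 higher and 2 lower in the knockout table, near the shares of all genes. Under TMM the split turned there to 5 higher and 7 lower. Tk2, the mitochondrial thymidine kinase, rose by 1.92 ± 0.19 and 2.09 ± 0.23 in the 2 tables. Of 16 genes of mitochondrial RNA processing and stability, 4 were higher and 2 lower in the transgene table, and 2 higher and 5 lower under TMM. Prorp, the mitochondrial RNase P nuclease, rose by 2.03 ± 0.25, and Rexo2, a mitochondrial exonuclease for short RNAs, by 1.54 ± 0.21. A link of these 2 rises with the levels of mitochondrially encoded transcripts was not tested.

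Of 34 assembly factors of complexes II to V, 8 were higher and 6 lower in Braf adenomas of the transgene table, and 4 higher and 13 lower under TMM. Uqcc2, for complex III, rose by 1.66 ± 0.21, and Cox15, which makes haem a for complex IV, changed by -1.39 ± 0.16. Of 10 further complex I assembly factors, 3 were higher and 3 lower. Of 11 targets of hypoxia-inducible factors and genes of replaced subunits, 4 were higher and 1 lower. AA467197, also called Nmes1, a relative of Ndufa4, was at 9.99 CPM in controls and 111 CPM in Braf libraries on average, a change of 3.35 ± 0.36 (adjusted p = 5.1e-05, limma), and of 3.06 ± 0.30 in the knockout table. Ndufa4 itself passed in neither.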

How the data were processed

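RNA of 27 mouse samples was sequenced, and 26 were in a group. 1 library with disagreeing labels was left out. Reads were handled with fastp, STAR, limma and GRCm38, per the submitters' processing notes, which give no versions. Counting and use of strand are not given in the sources used here. Per the labels, libraries came from a polyA kit or from a stranded, ribosome-depleted kit, and the kit of each library is not stated. In the transgene table the deposited values are CPM. Of values below 1000 reads, 100.0% were whole reads within 0.02, so reads and totals were recovered. Another 12 columns carry no sample and were not used. In the knockout table the deposited values are a signal, gene counts brought by the authors to like totals, multiplied here by 0.159 (nCPM). The tables were fitted apart.

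A gene was tested with at least 1 CPM or nCPM in at least 3 (transgene table) or 5 (knockout table) libraries. limma 3.58.1 in R 4.3.3 (trend and robust) fitted log2(value + 1) with 3 groups per table, two-sided, with Benjamini-Hochberg adjustment over all tested genes at 0.05. The design assumed no counts, so edgeR 4.0.16 and DESeq2 1.42.0 on the recovered reads were alternatives. The fits were tested on simulated data. Copies were found with BLAST 2.17.0 among GENCODE transcripts.

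The members, lists and tests were chosen with earlier results of these data known. Named were each mitochondrially encoded member, the most abundant nuclear subunit per complex, up to 5 nuclear members each way with the largest change whose higher group averaged 5 CPM or nCPM or more, the isoforms with their partners, members called against their complex, and up to 4 genes per list. 1 member that this rule names is not reported here. Sdhc, Sdhd, Uqcrfs1, Atp5a1, Atp5g1 to Atp5g3, Cox4i2, Cox5a, Cox7c, Ndufs1, Ndufv1 and the members called in all 4 comparisons were named after their values were seen wherever that rule does not give them.

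Alternatives varied the pseudocount (0.25 or 5), the filter (none, or at 5) and the scaling (TMM, median ratios, or totals without mitochondrially encoded genes). Others fitted only the 2 groups compared, used array weights, took the title number as a block, or dropped 1 library at a time.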

Additional observations from a re-analysis of the deposited data

Results flagged for a closer look

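In groups of 4 to 10 libraries, 126 groups of members' values and sums were looked at for a library far from the others by Dixon's test, and 15 had one (11.9%), where chance gives about 1 in 20. Knockout replicate 2 was the library in 11 of them. It was high for the sum of mitochondrially encoded members, at 260956 nCPM with the next knockout library at 106389 nCPM. It was high for mt-Co1 at 115260, mt-Cytb at 58759, mt-Nd1 at 36319, mt-Nd4 at 18717, mt-Nd2 at 16643 and mt-Nd6 at 5794 nCPM, where the next library was at 44940, 21635, 16677, 8419, 7199 and 2575 nCPM. Of the low set, it was high for mt-Co2 at 140, mt-Atp6 at 120 and mt-Nd4l at 3.56 nCPM. For the nuclear Cox8a it was low, at 210 nCPM with the next library at 400 nCPM. These values come from 1 library and are not independent of each other.

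The other 4 were single genes. Sdha was low in Braf replicate 5, at 177 nCPM with the next Braf library at 279 nCPM. Ndufb1-ps was low in Braf replicate 7, at 49.9 nCPM with the next at 63.5 nCPM. Ndufs4 was high in control replicate 8, at 115 nCPM with the next at 91.9 nCPM. Ndufv3 was high in knockout replicate 1, at 76.5 nCPM with the next at 58.2 nCPM.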

How the results depend on the processing

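Members called, in either direction, numbered 39 and 42 in Braf and transgene adenomas against controls in the transgene table (101 tested), 13 between these adenomas, 29 and 29 in Braf and knockout adenomas against controls in the knockout table (102 tested) and 0 between those. Of all genes 51.1%, 64.2%, 19.2%, 61.6%, 56.8% and 0.419% were called, in the same order. Between transgene and Braf adenomas the count of members was 7 with the 2 groups alone and 27 with DESeq2. In the knockout table it was 64 under TMM and 69 under median ratios in Braf adenomas, and 45 and 47 in knockout adenomas. Under TMM 28.8% of all genes were higher and 29.5% lower there in Braf adenomas, and 28.1% and 29.9% in knockout adenomas. The cause of these shifts in the member counts was not tested beyond the shift of the median gene given with the results. Leaving out 1 library gave 31 to 39, 34 to 43, 4 to 18, 19 to 26, 24 to 34 and 0 to 0 in the order above. The lowest of the 4 to 18 was without transgene replicate 3, and 19 was reached without control replicate 5, Braf replicate 6 or Braf replicate 8. A fit that leaves 2 libraries in a group shares the spread of the others. Cox7a2 in Braf adenomas of the knockout table went from 0.03 to -0.49 under median ratios, and passed. Among the values of single members under the alternatives, 3387 kept direction and side of the threshold, 307 no longer passed, 99 newly passed and 1 reversed with a call.

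Replicate numbers did not pair the libraries. Deviations from the group means of same-numbered libraries correlated at -0.18 to 0.16 in the transgene table and -0.16 to 0.37 in the knockout table, within the ranges of other pairs. With the number as a replicate block, the counts were 39, 38, 12, 32, 28 and 0 in the order above. Mitochondrially encoded members lower in knockout adenomas went from 1 to 8 with the block. Knockout replicates 1, 2 and 3 and control replicate 9 share their number with no other library of their table. With the block they add nothing to the difference, so this count rests on fewer libraries, without knockout replicate 2, and does not show a pairing.

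Depth limits Ndufa4l2, Cox4i2, Cox6b2 and mt-Nd3, which rest on 0 to 74 reads per library. In the knockout table depth is unknown.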

Other observations

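The library whose labels disagree on its group was in the knockout table and entered no comparison. Its mitochondrially encoded members summed to 71575 nCPM and its nuclear-encoded subunits to 16526 nCPM, a log2 ratio of 2.11. Cox7a1 was at 5.22 nCPM, Sdha at 342, Sdhb at 154, Uqcrc1 at 318, Ndufs4 at 134, Cox7a2l at 212 and Atp5g2 at 122 nCPM.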
